A study of Mus musculus with 6 samples.

Results

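The expression of 10 genes of dendritic cells and plasmacytoid cells was examined in CX3CR1-EGFP+ cells from the calvarial bone marrow of JAK inhibitor-treated and vehicle-treated mice. The genes were taken by symbol from the 24346 gene symbols in the expression table of each mouse, and all 10 were found. *Flt3*, *Zbtb46*, *Cd209a*, *Clec9a*, *Irf4* and *Ccr7* were treated as 6 genes of conventional dendritic cells, and *Siglech*, *Bst1*, *Tcf4* and *Bcl11a* as 4 genes of plasmacytoid cells. The question was whether either class differed between JAK inhibitor-treated mice and vehicle-treated controls, and how the values lay in each mouse.

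The mice were CX3CR1-EGFP knock-in mice, in which a green fluorescent reporter is made from the *Cx3cr1* locus, and all 6 of them had an injection of LPS (lipopolysaccharide) at 20 mg/kg into the periosteum of the calvaria. In the JAK inhibitor group, 3 mice were given ABT-317, a selective inhibitor of JAK1, by mouth at 60 mg/kg with 2 doses per day for 5 days. The 3 mice of the vehicle group had the same LPS and the vehicle alone on the same schedule, so the comparison holds no mouse without LPS. EGFP+ cells were then sorted from the marrow and their RNA was sequenced in bulk, with 1 library per mouse; the age of these mice is not given in the sources used here. The gate takes any cell that makes the reporter, and no dendritic cell antigen was used in it. The library kit is named as TruSeq Stranded mRNA in the methods and as SMART-Seq HT followed by Nextera in the sample labels.

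Dendritic cells take up antigen and present it to T cells, and they arise in the bone marrow from progenitors that carry the receptor FLT3. Conventional dendritic cells comprise a lineage that cross-presents antigen and depends on IRF8 and BATF3, and another that drives helper T cell responses and uses IRF4 and KLF4. Plasmacytoid dendritic cells secrete type I interferon when their endosomal receptors meet nucleic acid, and their identity is held by the transcription factor TCF4 together with BCL11A. Monocytes, which give rise to osteoclasts, share the early part of this pathway, and several dendritic cell genes are also active in them.

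Expression was given as FPKM, in which fragments are scaled for the length of the transcript and the size of the library. The sum of all FPKM was 758529, 688372 and 739909 for JAK inhibitor-treated mice 1, 2 and 3, whereas for vehicle-treated mice 1, 2 and 3 it was 775790, 740921 and 752098; the absolute depth is unknown. Vehicle-treated mouse 3 stood apart from the other mice: on the first principal component, which held 41.5% of the variance, it lay at 41.1, whereas the other vehicle-treated mice lay at 8.41 and 6.01 and the JAK inhibitor-treated mice at -15.8, -21.7 and -18.1. Its median correlation with its own group across genes was 0.974, against at least 0.979 for the others. Fold changes and list counts are therefore given with all mice and again without vehicle-treated mouse 3, a choice of mouse made after the data were seen.

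For the test, 11301 genes that reached an FPKM of 1 in any mouse were kept, and limma was used to compare their log2(FPKM + 1). Fold changes are JAK inhibitor minus vehicle on this log2 scale, which understates how much a gene with a low FPKM differs. Of the genes tested, 15 differed at an adjusted p under 0.05, or 0.133%. None of the 9 tested dendritic cell genes was among them. At an unadjusted p under 0.05 with limma, 16.0% of all tested genes passed, made up of 9.4% that were lower and 6.57% that were higher with the JAK inhibitor. Of the 9 dendritic cell genes 3 passed by the same measure: *Cd209a* and *Irf4* were higher and *Bst1* was lower. The groups did not overlap in 22.0% of all tested genes, 12.1% lower and 9.92% higher, and this held for *Irf4* (higher) and *Bst1* (lower). Neither count is set against a test of the list, since *Irf4* passed the filter only through JAK inhibitor-treated mice, which favours a higher value in them. Without vehicle-treated mouse 3, 94 of 11130 tested genes (0.845%) had an adjusted p under 0.05, again with none of the members among them, while 8.12% were lower and 5.39% higher at an unadjusted p under 0.05. The members at this unadjusted p were then *Irf4* (higher), *Siglech* and *Bst1* (both lower). *Clec9a* was under 1 FPKM in every mouse and was not tested.

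**Figure D1:**
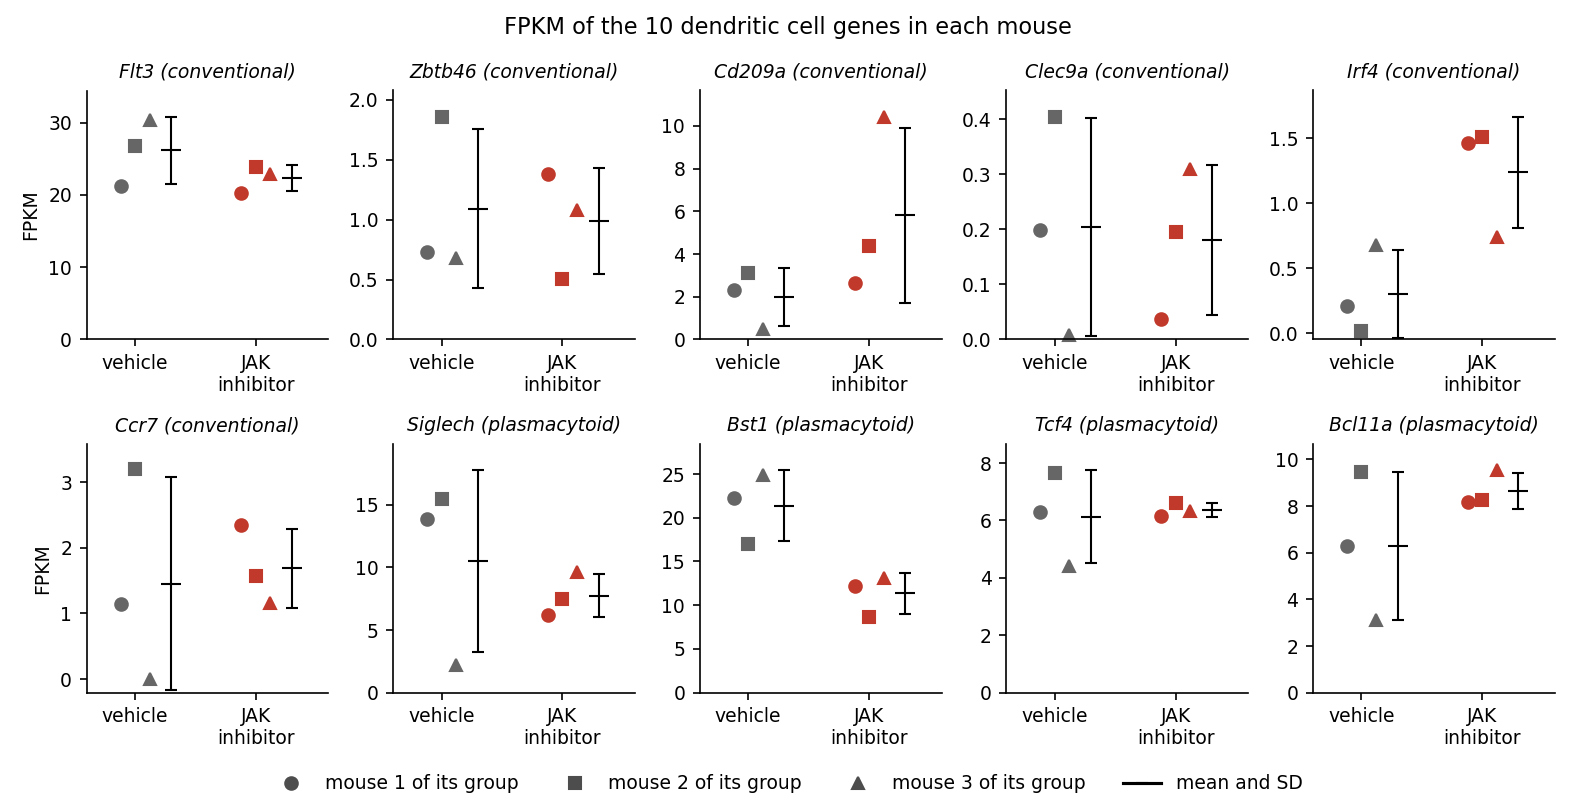
FPKM (vertical axes) of each of the 10 genes in 3 vehicle-treated mice (grey) and 3 JAK inhibitor-treated mice (red), with a marker shape for each mouse number and black bars for the mean and SD. For *Bst1*, all JAK inhibitor-treated mice (up to 13.1) lie under all vehicle-treated mice (at least 16.99), and for *Siglech* vehicle-treated mouse 3 (2.18) lies far under the other vehicle-treated mice (13.9 and 15.4).

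The levels spanned a wide range. The mean FPKM over all mice was 24.2 for *Flt3*, 16.4 for *Bst1*, 9.12 for *Siglech*, 7.46 for *Bcl11a* and 6.24 for *Tcf4*. It was 3.88 for *Cd209a*, 1.57 for *Ccr7*, 1.04 for *Zbtb46*, 0.771 for *Irf4* and 0.192 for *Clec9a*. The ranges of neighbours in this order overlapped: those of *Flt3* (20.3 to 30.4) and *Bst1* (8.67 to 24.9) did so, as did those of *Siglech* (2.18 to 15.4), *Bcl11a* (3.10 to 9.53) and *Tcf4* (4.43 to 7.66). Within each mouse, however, *Bst1* was above *Siglech*. Of the 10 genes, *Ccr7* was listed at 0 in vehicle-treated mouse 3 and each of the others was above 0 in every mouse. A mean of under 2 FPKM was found for 4 of the conventional genes and for 0 of the plasmacytoid genes.

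The sequences upstream of *Siglech*, *Cd209a* and *Irf4* are shown because, among the tested members with a promoter window, these had the widest spread over the mice: the highest FPKM was 7.07-fold the lowest for *Siglech*, 22.1-fold for *Cd209a* and 94.4-fold for *Irf4*. The 250 bases before the start of each gene are from RefSeq on GRCm38.p6, written 5′ to 3′ on the strand of the gene. The windows are chr7:55767934-55768183 on the plus strand for *Siglech*, chr8:3748985-3749234 on the minus strand for *Cd209a* and chr13:30748983-30749232 on the plus strand for *Irf4*. Capitals mark the E-box CANNTG, a motif of basic helix-loop-helix factors, and TTCNNNGAA, a motif of STAT factors; each reads the same on both strands.
Siglech: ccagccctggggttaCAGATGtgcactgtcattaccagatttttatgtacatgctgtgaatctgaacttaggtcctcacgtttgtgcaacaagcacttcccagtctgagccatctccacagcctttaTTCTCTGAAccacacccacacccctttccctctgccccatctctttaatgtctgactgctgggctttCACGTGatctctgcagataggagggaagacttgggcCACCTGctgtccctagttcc
Cd209a: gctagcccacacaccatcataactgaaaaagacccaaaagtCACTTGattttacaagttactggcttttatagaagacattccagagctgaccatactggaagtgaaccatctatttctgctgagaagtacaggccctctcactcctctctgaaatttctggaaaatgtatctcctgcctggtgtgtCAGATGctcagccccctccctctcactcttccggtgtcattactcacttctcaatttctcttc
Irf4: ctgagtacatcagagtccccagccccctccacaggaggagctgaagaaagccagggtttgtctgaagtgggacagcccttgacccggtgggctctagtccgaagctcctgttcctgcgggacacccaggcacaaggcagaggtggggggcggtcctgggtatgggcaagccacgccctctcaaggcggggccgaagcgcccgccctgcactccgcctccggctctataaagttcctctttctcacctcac
The *Siglech* window held 3 E-boxes, which began 235, 56 and 20 bases before the start, and 1 TTCNNNGAA, which began 123 bases before it and overlapped none of them. The *Cd209a* window held 2 E-boxes, at 209 and 63 bases, and the *Irf4* window held neither motif. Of 32851 promoter windows of this length, 66.2% held at least 1 E-box, 12.2% held 3 or more, and 7.02% held TTCNNNGAA. Among the members with a window, *Bcl11a* also held 1 of each, *Flt3* and *Clec9a* held 1 E-box each, and *Zbtb46* held 5. These matches describe the letters alone, and binding was not measured.

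Among the conventional genes, *Flt3* encodes the receptor through which FLT3 ligand drives dendritic cell development. It lies at chr5:147330741-147400489 in the GENCODE annotation of GRCm38. Its FPKM was 20.3, 23.8 and 22.9 in JAK inhibitor-treated mice 1, 2 and 3 and 21.3, 26.8 and 30.4 in vehicle-treated mice 1, 2 and 3. The groups overlapped, and the highest value was in vehicle-treated mouse 3. This gave a log2 fold change of -0.21 (SE 0.14, limma adjusted p = 0.521), and it was -0.10 without vehicle-treated mouse 3. Without vehicle-treated mouse 1 it was -0.34 (limma unadjusted p = 0.0338, adjusted p = 0.294). *Flt3l*, which encodes the ligand, was at 7.47 ± 1.26 FPKM in vehicle-treated mice and 6.19 ± 0.885 in JAK inhibitor-treated mice (mean ± SD, n = 3), a log2 fold change of -0.23 with all mice and -0.36 without vehicle-treated mouse 3. In bulk RNA of sorted cells, fewer cells of a type and less RNA per cell cannot be told apart, and this holds for each result here.

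*Zbtb46*, a transcription factor that marks committed conventional dendritic cells, was near the limit of the filter. Its FPKM was 1.38, 0.507 and 1.08 in JAK inhibitor-treated mice 1, 2 and 3 and 0.731, 1.86 and 0.684 in vehicle-treated mice 1, 2 and 3. High and low values occurred in both groups, which overlapped. Its log2 fold change was -0.05, with a 95% interval from -0.71 to 0.60 (limma adjusted p = 0.954), and it was -0.19 without vehicle-treated mouse 3 and 0.20 without vehicle-treated mouse 2. *Clec9a*, the receptor for dead cells on cross-presenting dendritic cells, was at 0.037, 0.195 and 0.310 FPKM in JAK inhibitor-treated mice and at 0.199, 0.404 and 0.008 in vehicle-treated mice. These values also overlapped, and those of vehicle-treated mice included both the highest and the lowest.

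*Cd209a*, the mouse homolog of DC-SIGN, is a C-type lectin of dendritic cells and of a subset of monocytes. Its FPKM was 2.64, 4.37 and 10.4 in JAK inhibitor-treated mice 1, 2 and 3 and 2.29, 3.13 and 0.471 in vehicle-treated mice 1, 2 and 3. JAK inhibitor-treated mouse 3 had the highest value and vehicle-treated mouse 3 the lowest, and the groups overlapped through JAK inhibitor-treated mouse 1 and vehicle-treated mouse 2. A log2 fold change of 1.16 was found (SE 0.47; limma unadjusted p = 0.0362, adjusted p = 0.277). It was 0.72 without vehicle-treated mouse 3 (limma unadjusted p = 0.106) and 0.70 without JAK inhibitor-treated mouse 3 (limma unadjusted p = 0.148). The unadjusted p was also above 0.05 without JAK inhibitor-treated mouse 2 (log2 fold change 1.247, limma unadjusted p = 0.0625), with no filter (0.0869), with no trend (0.0564) and with the replicate block (0.0581), so that it was under 0.05 in 8 of 14 alternatives. *Mgl2*, another lectin of this lineage, was at 25.5, 22.8 and 22.1 FPKM in JAK inhibitor-treated mice and at 14.999, 19.3 and 3.56 in vehicle-treated mice, without overlap, and its log2 fold change was 1.10 with all mice and 0.44 without vehicle-treated mouse 3.

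*Irf4*, a transcription factor needed by the second conventional lineage and also used by plasma cells and activated lymphocytes, was low. Its FPKM was 1.46, 1.51 and 0.745 in JAK inhibitor-treated mice 1, 2 and 3 and 0.211, 0.016 and 0.679 in vehicle-treated mice 1, 2 and 3. All JAK inhibitor-treated mice were above all vehicle-treated mice, but JAK inhibitor-treated mouse 3 (0.745) and vehicle-treated mouse 3 (0.679) were close. The log2 fold change was 0.80 (SE 0.28; limma unadjusted p = 0.0186, adjusted p = 0.214), and the exact 2-sided permutation p was 0.1, the smallest that 3 against 3 mice can give. It was 0.99 without vehicle-treated mouse 3, but 0.63 without vehicle-treated mouse 2 and 0.72 and 0.70 without JAK inhibitor-treated mice 1 and 2, each with an unadjusted p above 0.05 (limma unadjusted p = 0.0659, 0.0665 and 0.0680). With a pseudocount of 0.1 in place of 1 it was 2.08, so its size depends on the scale at such low values.

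Because *Irf4* is active in other cells, their markers were examined. Of 10 B lineage markers, 3 passed the filter and none passed an unadjusted p under 0.05, with all mice or without vehicle-treated mouse 3. *Vpreb1*, a surrogate light chain gene of B cell precursors, was at a log2 fold change of 0.43 (0.58 without that mouse) and passed the filter only through JAK inhibitor-treated mice. With other mice left out, the value for *Vpreb1* ran from 0.085 without JAK inhibitor-treated mouse 2 to 0.915 without JAK inhibitor-treated mouse 3 (limma unadjusted p = 0.0286). *Ms4a1*, *Pax5* and *Ebf1*, which define B cells, were listed at 0 in every mouse of both groups. *Cd79b*, the most abundant of the list at a mean of 30.1 FPKM, gave nearly all of the summed level, which was 35.2, 32.2 and 39.8 in JAK inhibitor-treated mice 1, 2 and 3 and 29.4, 35.4 and 28.8 in vehicle-treated mice 1, 2 and 3. All 6 plasma cell markers passed the filter, and 3 of them (*Xbp1*, *Sdc1* and *Prdm1*) were lower with the JAK inhibitor at an unadjusted p under 0.05 and 0 were higher, but without vehicle-treated mouse 3 *Sdc1* was the 1 gene at this p (limma unadjusted p = 0.0713 for *Xbp1* and 0.187 for *Prdm1*). This count is not read against all tested genes, because *Prdm1* passed the filter only through vehicle-treated mice and *Jchain* only through JAK inhibitor-treated mice, which favours the direction that each of them had. The log2 fold change with all mice and without vehicle-treated mouse 3 was -0.20 and -0.18 for *Xbp1*, -1.04 and -0.62 for *Sdc1*, and -0.65 and -0.37 for *Prdm1*. *Jchain*, which encodes the joining chain of secreted antibodies, lay the other way at 0.88 and 0.81, with 7.05 FPKM in JAK inhibitor-treated mouse 3 and at most 0.365 in any other mouse. The summed level of the plasma cell markers, mostly *Xbp1* at a mean of 239 FPKM, was 220, 217 and 254 in JAK inhibitor-treated mice and 266, 256 and 278 in vehicle-treated mice. The part of B lineage or plasma cells in the values of *Irf4* was not tested.

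*Ccr7*, the chemokine receptor that guides mature dendritic cells to lymph nodes, was at 2.34, 1.56 and 1.15 FPKM in JAK inhibitor-treated mice 1, 2 and 3 and at 1.15, 3.20 and 0 in vehicle-treated mice 1, 2 and 3. Vehicle-treated mice held both the highest and the lowest value, so the groups overlapped. Its log2 fold change was 0.34 (SE 0.46, limma adjusted p = 0.761), but it was -0.18 without vehicle-treated mouse 3. Without vehicle-treated mouse 2 it was 0.85 (limma unadjusted p = 0.0493, adjusted p = 0.298). Other genes of mature dendritic cells differed widely in level. Of 14 listed, 6 were under 1 FPKM in every mouse, with *Ccl22* and *Il12b* at 0 in all of them, and the 8 that passed the filter had means from 1.46 (*Cd83*) to 84.9 FPKM (*Ebi3*). The median log2 fold change of these 8 was -0.11 (-0.10 without vehicle-treated mouse 3), against -0.004 for all tested genes. At an unadjusted p under 0.05, 9.4% of all tested genes were lower and 6.57% higher (8.12% and 5.39% without that mouse). Of these 8, 1 was lower and 0 were higher in either case. The lower gene was *Cd86*, a costimulatory ligand, at 13.4, 11.1 and 13.4 FPKM in JAK inhibitor-treated mice and 20.6, 15.7 and 25.3 in vehicle-treated mice (log2 fold change -0.64, limma unadjusted p = 0.00528, adjusted p = 0.149, and -0.48 without vehicle-treated mouse 3). *Traf1* was at -0.66 (-0.30 without that mouse) and *Cd274*, which encodes the ligand PD-L1, at 0.15 (0.16), neither with an unadjusted p under 0.05.

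**Figure D2:**
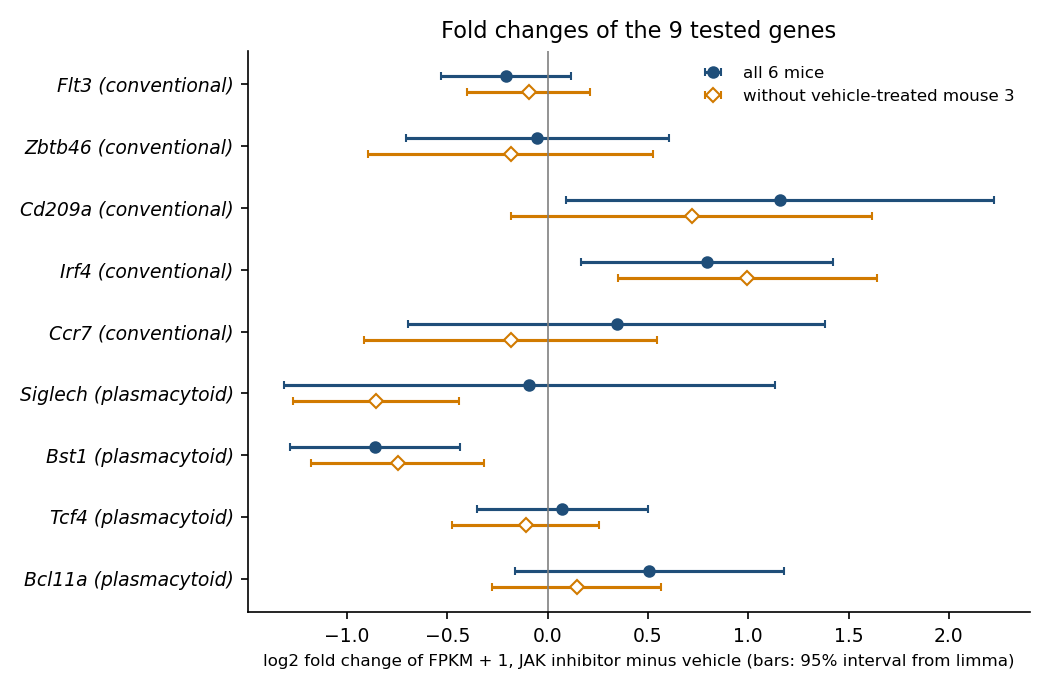
Log2 fold change of FPKM + 1 (horizontal axis, JAK inhibitor minus vehicle) of the 9 tested genes, with all 6 mice (filled) and without vehicle-treated mouse 3 (open); bars are 95% intervals from limma. *Siglech* moves from -0.09 to -0.86 when that mouse is left out, *Ccr7* from 0.34 to -0.18, and *Bst1* stays under 0 (-0.86 and -0.75).

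Among the plasmacytoid genes, *Siglech* encodes a sialic acid-binding receptor used to identify these cells in mice, and it lies at chr7:55768178-55778925. Its FPKM was 6.17, 7.45 and 9.62 in JAK inhibitor-treated mice 1, 2 and 3 and 13.9, 15.4 and 2.18 in vehicle-treated mice 1, 2 and 3. The JAK inhibitor-treated mice lay between vehicle-treated mice 1 and 2, which were high, and vehicle-treated mouse 3, which was the lowest of all. The mean of vehicle-treated mice 1 and 2 was 6.71-fold that of vehicle-treated mouse 3. With all mice the log2 fold change was -0.09 (SE 0.54; limma adjusted p = 0.955). Without vehicle-treated mouse 3 the JAK inhibitor-treated mice all lay lower, as in 16.8% of tested genes, and the log2 fold change was -0.86, with a 95% interval from -1.27 to -0.44 (limma unadjusted p = 0.00108, adjusted p = 0.0821). The direction for *Siglech* thus depended on which library was left out, since the log2 fold change was 0.26 without vehicle-treated mouse 1, 0.33 without vehicle-treated mouse 2 and 0.04 without JAK inhibitor-treated mouse 1. It did not pass the adjusted threshold in any of these comparisons.

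*Bst1* encodes CD157, an ADP-ribosyl cyclase of myeloid and stromal cells. It is not *Bst2*, which encodes the antigen PDCA-1 recognized on plasmacytoid cells, and its values are therefore not read as a measure of these cells. The FPKM of *Bst1*, at chr5:43818885-43843986, was 12.2, 8.67 and 13.1 in JAK inhibitor-treated mice 1, 2 and 3 and 22.3, 16.99 and 24.9 in vehicle-treated mice 1, 2 and 3. All JAK inhibitor-treated mice were under all vehicle-treated mice, and vehicle-treated mouse 3 had the highest value. The mean was 21.4 ± 4.02 FPKM in the vehicle group and 11.3 ± 2.36 in the JAK inhibitor group (SD, n = 3), a ratio of 1.88. On the log2 scale the difference was -0.86, with a 95% interval from -1.29 to -0.44 (limma unadjusted p = 0.00132, adjusted p = 0.109), and the exact 2-sided permutation p was 0.1. It was -0.75 without vehicle-treated mouse 3. Among the 9 tested members *Bst1* had the smallest unadjusted p with all mice and *Siglech* without vehicle-treated mouse 3, and neither passed the adjusted threshold in these comparisons. With the replicate number as a block *Bst1* did pass it (limma adjusted p = 0.0397), although no pairing of the mice by number is stated in the sources used here.

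The expression of *Bst2* did not follow that of *Bst1*. It was at 51.4, 59.5 and 52.3 FPKM in JAK inhibitor-treated mice and at 55.7, 55.0 and 35.0 in vehicle-treated mice, which overlapped. The log2 fold change of *Bst2* was 0.19 with all mice and -0.03 without vehicle-treated mouse 3. Since *Bst1* is made by neutrophils and monocytes, markers of both are given beside it. At an unadjusted p under 0.05, 9.4% of all tested genes were lower and 6.57% higher with the JAK inhibitor (8.12% and 5.39% without vehicle-treated mouse 3). Of 8 neutrophil markers tested, 0 were lower and 3 were higher at this p, namely *Camp*, *Elane* and *Mpo*, with or without that mouse. Their log2 fold changes were 1.64, 1.118 and 0.93 with all mice and 1.44, 0.70 and 0.53 without that mouse. *Elane* passed the adjusted threshold without it (limma adjusted p = 0.0101) but not with all mice (limma adjusted p = 0.136). The median log2 fold change was 0.60, or 0.35 without that mouse. *S100a8*, *S100a9* and *Retnlg* lay on the side of *Bst1*, at -0.56, -0.18 and -0.59, with no unadjusted p under 0.05, and without vehicle-treated mouse 3 they were at -0.32, 0.18 and -1.18. The summed FPKM of all 8 neutrophil markers was 24330, 17160 and 21420 in JAK inhibitor-treated mice and 19690, 16950 and 22870 in vehicle-treated mice, led by *S100a8* at a mean of 9574. Of 8 monocyte markers, 2 were lower and 1 was higher, with or without that mouse. *Ms4a6c* was at -0.22 (-0.20 without it), *Fn1* at -0.65 (-0.41) and *Nr4a1* at 1.14 (0.84). *Nr4a1* passed the adjusted threshold without vehicle-treated mouse 1 (limma adjusted p = 0.0165) but not with all mice (limma adjusted p = 0.159). The monocyte list had a median of 0.04 (0.004 without vehicle-treated mouse 3). Its summed FPKM was 6213, 5883 and 6356 against 6293, 6486 and 4648, led by *Ly6c2* at a mean of 4146. *Ly6c2* alone had a log2 fold change of 0.18 with all mice and -0.06 without vehicle-treated mouse 3. No marker of these 2 lists was at 0 in every mouse, and their part in the values of *Bst1* was not tested.

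*Tcf4* and *Bcl11a* encode the transcription factors that hold the plasmacytoid program, and both are also active in lymphoid progenitors. The FPKM of *Tcf4* was 6.14, 6.62 and 6.32 in JAK inhibitor-treated mice 1, 2 and 3 and 6.28, 7.66 and 4.43 in vehicle-treated mice 1, 2 and 3. The JAK inhibitor-treated mice were close together and lay within the range of the vehicle-treated mice. The log2 fold change was 0.07, with a 95% interval from -0.35 to 0.50 (limma adjusted p = 0.888), and -0.11 without vehicle-treated mouse 3. The FPKM of *Bcl11a* was 8.16, 8.27 and 9.53 in JAK inhibitor-treated mice 1, 2 and 3 and 6.27, 9.46 and 3.10 in vehicle-treated mice 1, 2 and 3. Here too the vehicle-treated mice spread widely and overlapped with the other group. For *Bcl11a*, the log2 fold change was 0.51 (SE 0.30, limma adjusted p = 0.445) and 0.14 without vehicle-treated mouse 3. It was 0.82 without vehicle-treated mouse 2 (limma unadjusted p = 0.0102, adjusted p = 0.157). Of 5 stem and progenitor markers tested, 0 were lower and 2 were higher at an unadjusted p under 0.05 (*Cd34* and *Myb*). Over all tested genes 9.4% were lower and 6.57% higher. Of the 5 markers, 4 were lowest in vehicle-treated mouse 3. Without that mouse, 0 were lower and 0 were higher (limma unadjusted p = 0.0913 for *Cd34* and 0.0671 for *Myb*). The median log2 fold change was then 0.20, against 0.38 with all mice. *Cd34* passed the adjusted threshold without vehicle-treated mouse 2 (limma adjusted p = 0.0368). The summed FPKM of all 6 listed stem and progenitor markers was 114, 141 and 110 in JAK inhibitor-treated mice and 88.1, 120 and 77.4 in vehicle-treated mice, with *Myb* the most abundant at a mean of 40.6, and the part of such cells in the values of *Bcl11a* was not tested.

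The classes were then compared per mouse, as the mean over tested genes of log2(FPKM + 1) after the mean of each gene over all mice was subtracted. The level of the 5 tested conventional genes was 0.19, 0.14 and 0.28 in JAK inhibitor-treated mice 1, 2 and 3 and -0.25, 0.16 and -0.52 in vehicle-treated mice 1, 2 and 3. The level of the 4 plasmacytoid genes was -0.11, -0.14 and 0.11 in JAK inhibitor-treated mice and 0.28, 0.41 and -0.55 in vehicle-treated mice. In both classes vehicle-treated mouse 3 was the lowest and the groups overlapped. Without *Irf4*, which passed the filter only through JAK inhibitor-treated mice, the conventional level was 0.10, 0.03 and 0.34 in JAK inhibitor-treated mice and -0.20, 0.38 and -0.65 in vehicle-treated mice. Without *Bst1*, the plasmacytoid level was -0.05, 0.07 and 0.22 in JAK inhibitor-treated mice and 0.20, 0.51 and -0.96 in vehicle-treated mice. The median log2 fold change was 0.34 for the conventional genes and -0.01 for the plasmacytoid genes, against -0.004 for all tested genes, and -0.10 and -0.43 without vehicle-treated mouse 3. It was 0.15 for the conventional genes without *Irf4* (-0.14 without that mouse) and 0.07 for the plasmacytoid genes without *Bst1* (-0.11 without that mouse). These medians thus rested on single genes and on that mouse. A difference between the classes was not tested.

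**Figure D3:**
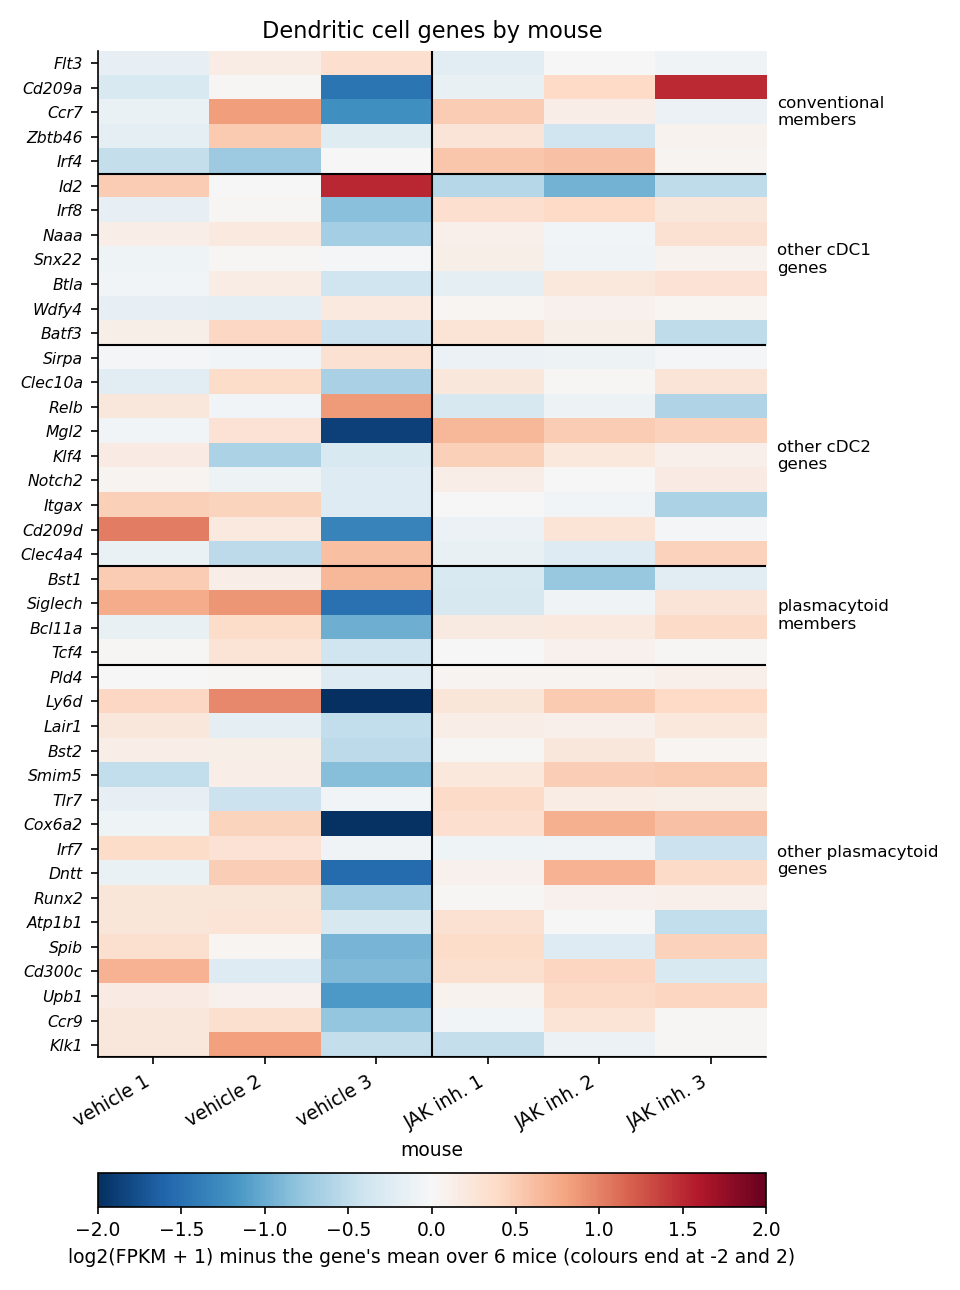
Log2(FPKM + 1) minus the mean of each gene (color) in each mouse (columns) for the tested genes of conventional and plasmacytoid cells (rows, grouped by list). In the column of vehicle-treated mouse 3, 12 of 16 other plasmacytoid genes and 3 of 4 plasmacytoid members have their lowest value.

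The low values of vehicle-treated mouse 3 extended to other plasmacytoid genes. Of 20 further genes of these cells, 16 passed the filter, and 12 of these 16 (75.0%) had their lowest value in this mouse, against 24.7% of all tested genes. Lists of other cells had such shares too, with 4 of 5 stem and progenitor markers (80.0%), 4 of 6 mast cell and basophil markers (66.7%) and 4 of 8 in each of the monocyte and neutrophil lists. Its FPKM was 8.77 for *Ly6d*, which was between 65.2 and 108.0 in the other mice. For *Cox6a2* it was 2.25, against 10.99 to 19.8, and for *Dntt* 1.32, against 5.17 to 9.97. These 3 genes were chosen after their values were seen. The same mouse had the highest value of all 7 osteoclast markers, whose summed FPKM was 618 in it, 287 and 194 in vehicle-treated mice 1 and 2, and 142, 138 and 142 in JAK inhibitor-treated mice 1, 2 and 3. Of the osteoclast markers, 5 were lower with the JAK inhibitor at an unadjusted p under 0.05 and 0 were higher (median log2 fold change -1.19). Over all tested genes 9.4% were lower and 6.57% higher. The authors had named *Ctsk*, *Dcstamp*, *Ocstamp* and *Atp6v0d2* as downregulated in the same data, so the count is not independent of their result. *Acp5* was the most abundant osteoclast marker, at a mean of 164 FPKM. *Ctsk*, the cathepsin of bone resorption, was at -2.43 (limma adjusted p = 0.109), and at -1.81 without that mouse (limma adjusted p = 0.0287). *Dcstamp* and *Ocstamp*, 2 of these 5, passed the filter only through vehicle-treated mice, which favours a lower value with the JAK inhibitor. When that mouse was left out the counts were again 5 and 0, with a median of -1.003. What sets this mouse apart was not tested.

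In the comparison of the groups, the median log2 fold change of the other plasmacytoid genes was 0.30 with all mice and -0.01 without vehicle-treated mouse 3. At an unadjusted p under 0.05, 1 of 16 was lower and 2 were higher, or 6.25% and 12.5%, against 9.4% and 6.57% of all tested genes. Without that mouse 2 were lower and 2 were higher, the added gene being *Klk1*, which passed the filter only through vehicle-treated mice. None passed the adjusted threshold with limma in either case. *Irf7*, which drives the interferon response, was at 11.8, 11.8 and 9.04 FPKM in JAK inhibitor-treated mice and 16.3, 15.4 and 11.8 in vehicle-treated mice (log2 fold change -0.38, and -0.51 without vehicle-treated mouse 3). The log2 fold change of *Irf7* was -0.265 without JAK inhibitor-treated mouse 3 (limma unadjusted p = 0.164) and -0.295 without vehicle-treated mouse 1 (limma unadjusted p = 0.147). Its unadjusted p was under 0.05 in 7 of 14 alternatives. *Tlr7*, the endosomal receptor for single-stranded RNA, was at 18.3, 15.4 and 14.9 in JAK inhibitor-treated mice and 12.2, 9.96 and 13.1 in vehicle-treated mice (log2 fold change 0.43, and 0.51 without that mouse). *Smim5* also lay higher (0.81, and 0.59 without that mouse), and it passed the adjusted threshold without vehicle-treated mouse 2 (limma adjusted p = 0.0354). *Irf7* and *Tlr7*, which act in the same response, thus lay in opposite directions, and *Tlr7* is also active in monocytes. *Pld4* was the most abundant of the list, at 462.8 ± 48.7 FPKM in vehicle-treated mice and 508.5 ± 7.88 in JAK inhibitor-treated mice (SD, n = 3).

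The other genes of the conventional lineages were divided in the same way. Of 11 genes of the cross-presenting lineage (cDC1), 7 passed the filter, and *Xcr1*, *Itgae*, *Cadm1* and *Tlr3* were under 1 FPKM in every mouse, as was *Clec9a*. At an unadjusted p under 0.05, 1 was lower and 1 was higher, with or without vehicle-treated mouse 3. The shares of all tested genes were 9.4% and 6.57% with all mice and 8.12% and 5.39% without that mouse. The median log2 fold change of the 7 was 0.11 (0.06 without it). *Btla*, an inhibitory receptor, was at 0.21 (0.06 without it). *Irf8*, which directs this lineage and is also high in monocyte progenitors, was at 255, 264 and 236 FPKM in JAK inhibitor-treated mice 1, 2 and 3 and 179.8, 205 and 112 in vehicle-treated mice 1, 2 and 3. The groups did not overlap, and the log2 fold change was 0.65 (SE 0.19; limma unadjusted p = 0.00882, adjusted p = 0.169) and 0.39 without vehicle-treated mouse 3. *Id2*, a repressor of the E proteins to which TCF4 belongs, was at 169, 130.3 and 176 FPKM in JAK inhibitor-treated mice and 359, 252 and 719 in vehicle-treated mice. All JAK inhibitor-treated mice were under all vehicle-treated mice, with vehicle-treated mouse 3 far above the rest. The log2 fold change was -1.35 (SE 0.32, limma adjusted p = 0.117), and without vehicle-treated mouse 3 it was -0.93 (limma adjusted p = 0.0400). Without vehicle-treated mouse 2 it was -1.69 (limma adjusted p = 0.0354).

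Of 10 further genes of the second conventional lineage (cDC2), 9 passed the filter, with a median log2 fold change of 0.08 (0.10 without vehicle-treated mouse 3). At an unadjusted p under 0.05, 1 was lower and 2 were higher, or 11.1% and 22.2%, against 9.4% and 6.57% of all tested genes. With vehicle-treated mouse 3 left out, 2 were lower, since *Itgax*, which encodes CD11c, went from -0.45 to -0.68 (limma unadjusted p = 0.0151), and 2 were higher. *Relb*, a subunit of NF-kappaB, was at 13.6, 16.0 and 11.04 FPKM in JAK inhibitor-treated mice and 20.2, 16.6 and 31.8 in vehicle-treated mice, without overlap (log2 fold change -0.68, limma unadjusted p = 0.0161, adjusted p = 0.206, and -0.42 without vehicle-treated mouse 3). *Klf4*, a transcription factor of this lineage and of monocytes, was at 21.9, 17.9 and 16.5 FPKM in JAK inhibitor-treated mice and 17.3, 9.50 and 12.2 in vehicle-treated mice, which overlapped (log2 fold change 0.53, limma unadjusted p = 0.0296, adjusted p = 0.258, and 0.50 without vehicle-treated mouse 3). The log2 fold change of *Klf4* was 0.34 without vehicle-treated mouse 2 (limma unadjusted p = 0.106). It was 0.42 without JAK inhibitor-treated mouse 1 (limma unadjusted p = 0.109). *Irf4*, *Klf4* and *Mgl2* therefore lay higher and *Relb* lower in JAK inhibitor-treated mice, and none passed the adjusted threshold. The limma unadjusted p was under 0.05 in 9 of 14 alternatives for *Klf4* and for *Mgl2*. For *Relb* this held in 13 of 14 and for *Irf4* in 10 of 13. *Irf4* passed the filter only through JAK inhibitor-treated mice, which favours a higher value in them. *Sirpa*, the most abundant gene of the list, was at 170.3 ± 24.6 FPKM in vehicle-treated mice and 151.7 ± 5.79 in JAK inhibitor-treated mice (SD, n = 3; log2 fold change -0.16, and -0.04 without that mouse).

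**Figure D4:**
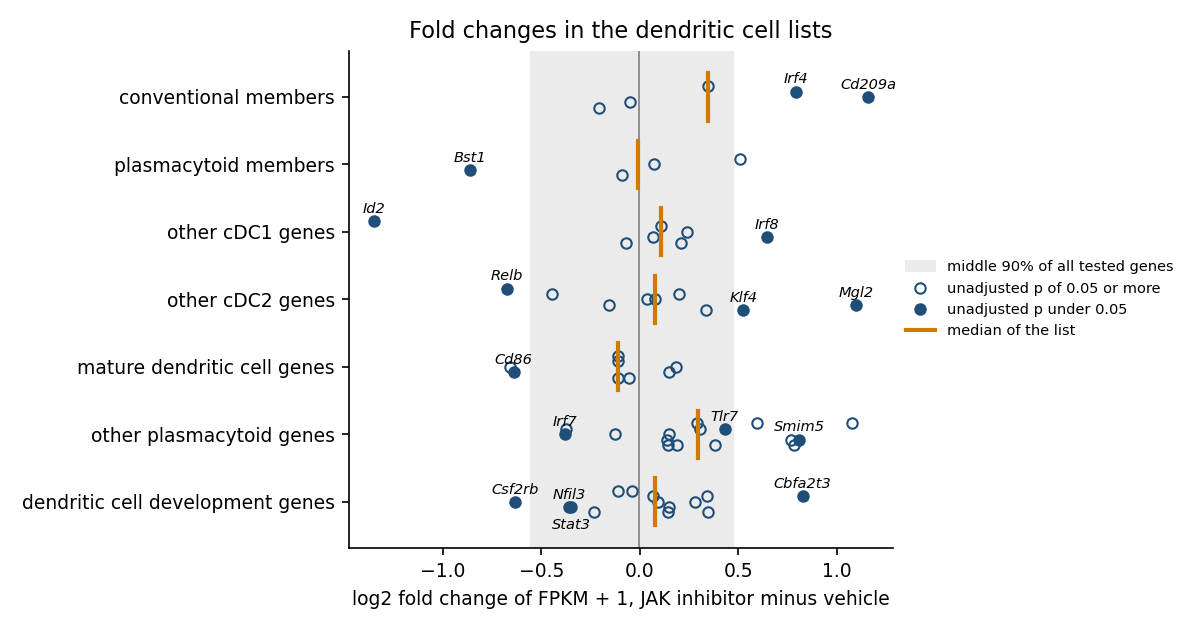
Log2 fold change of FPKM + 1 (horizontal axis, JAK inhibitor minus vehicle) of each tested gene of the dendritic cell lists (rows), with genes at an unadjusted p under 0.05 filled and named, the median of each list as an orange bar and the range of the middle 90% of all tested genes in grey. Genes at this p lie on both sides of 0 in each list of other lineage or development genes, with medians of 0.11 (cDC1), 0.08 (cDC2), 0.30 (plasmacytoid) and 0.08 (development).

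All 14 genes of dendritic cell development, which comprise cytokine receptors, STAT factors and lineage regulators, passed the filter. At an unadjusted p under 0.05, 3 were lower and 1 was higher, or 21.4% and 7.14%, against 9.4% and 6.57% of all tested genes. The counts were 2 lower and 2 higher without vehicle-treated mouse 3, so that lower genes no longer outnumbered higher ones. *Stat3*, which acts downstream of FLT3 and of JAK1, was at 48.2, 54.2 and 59.6 FPKM in JAK inhibitor-treated mice and 69.7, 65.7 and 70.9 in vehicle-treated mice, without overlap (log2 fold change -0.35, limma unadjusted p = 0.00852, adjusted p = 0.168, and -0.32 without that mouse). *Csf2rb*, the shared receptor chain for GM-CSF, was at 40.5, 45.4 and 43.5 FPKM in JAK inhibitor-treated mice and 62.0, 54.5 and 90.3 in vehicle-treated mice, also without overlap (log2 fold change -0.63, limma adjusted p = 0.147, and -0.42 without that mouse). The third lower gene was *Nfil3*, at -0.36 (limma unadjusted p = 0.0422) with all mice and -0.25 (limma unadjusted p = 0.118) without vehicle-treated mouse 3. *Csf2ra*, the GM-CSF receptor chain that binds the ligand, was at 0.15 with all mice and was the added higher gene without that mouse (0.25, limma unadjusted p = 0.0260). *Cbfa2t3*, a corepressor that restrains conventional dendritic cell genes in plasmacytoid cells, was higher (0.83, limma adjusted p = 0.147, and 0.71 without that mouse). *Flt3*, its ligand gene *Flt3l* and *Spi1*, which encodes the factor PU.1, had log2 fold changes of -0.21, -0.23 and -0.11, or -0.10, -0.36 and -0.08 without that mouse, and none of these 3 passed an unadjusted p under 0.05 in either case.

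**Figure D5:**
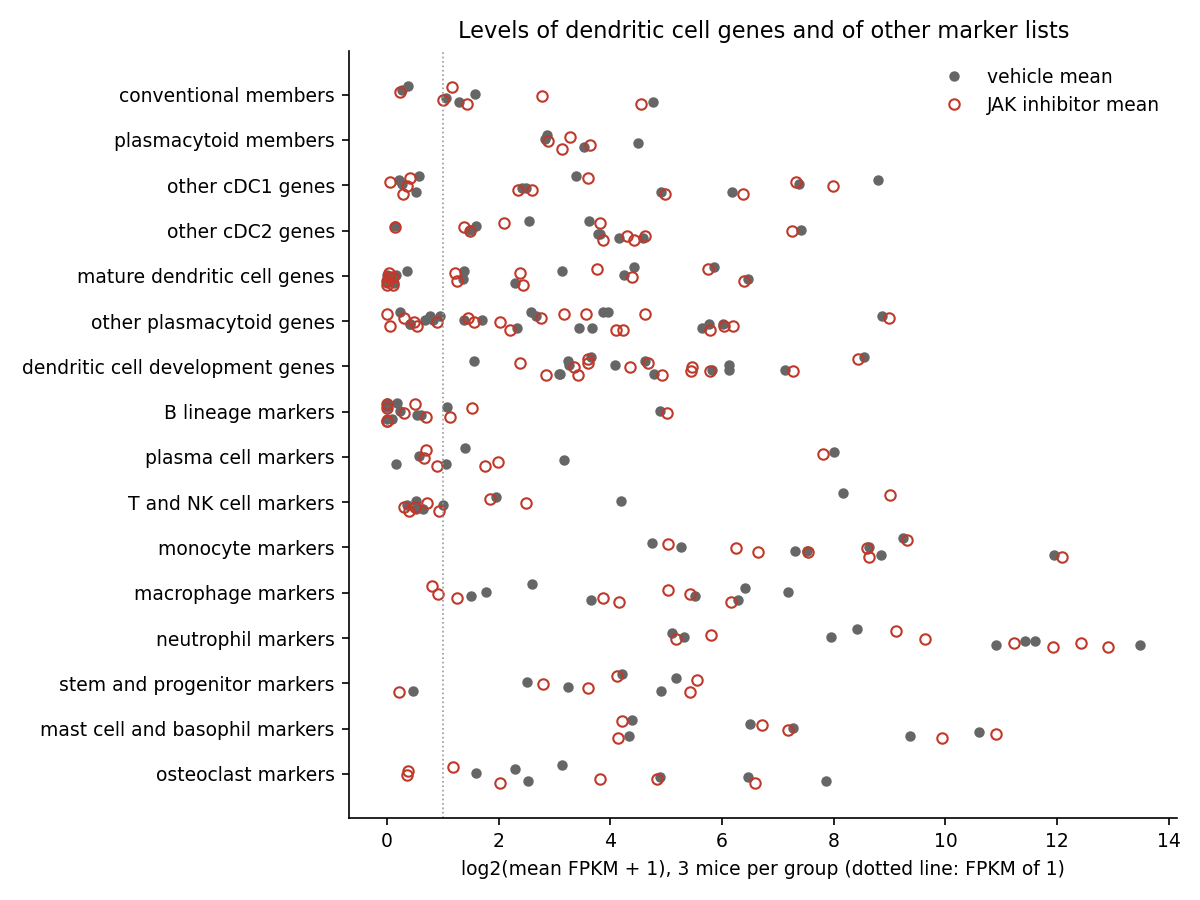
Log2 of the mean FPKM + 1 (horizontal axis) of each gene of the dendritic cell lists and of the marker lists of other cells (rows) in vehicle-treated (filled) and JAK inhibitor-treated (open) mice, n = 3 each; the dotted line marks 1 FPKM. The most abundant dendritic cell gene of the 10, *Flt3* (mean 24.2 FPKM), lies far under the leading monocyte gene *Ly6c2* (4146) and the leading neutrophil gene *S100a8* (9574).

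The sorted cells were labelled as osteoclast precursors of the monocyte lineage, and genes of several cell types were abundant in them. *Ly6c2*, *S100a8* and the basophil protease gene *Prss34* (mean 1737 FPKM) were each far above any of the 10 dendritic cell genes. Of 8 macrophage markers, 4 were lower with the JAK inhibitor at an unadjusted p under 0.05 and 0 were higher, with a median log2 fold change of -1.11. Without vehicle-treated mouse 3, 5 were lower and 1 (*Vcam1*) was higher, with a median of -1.13. Over all tested genes 9.4% were lower and 6.57% higher, or 8.12% and 5.39% without that mouse. *C1qa* and *C1qb*, subunits of complement C1q, were at -1.66 and -1.78 with all mice (limma adjusted p = 0.122 and 0.0721). The groups overlapped for *C1qa* but not for *C1qb*. Without vehicle-treated mouse 3 these genes were at -2.08 and -2.07 (limma adjusted p = 0.0240 and 0.00909). The summed FPKM of all 8 macrophage markers was 234, 138 and 161 in JAK inhibitor-treated mice and 427, 433 and 253 in vehicle-treated mice, led by *C1qb* at a mean of 93.0, and none was at 0 in every mouse. *Bst1*, *Id2* and *Cd86* lay lower beside these macrophage markers and the osteoclast markers, and the part of either cell type in their values was not tested.

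The genes nearest in pattern to each member were then sought among 119 tested genes of all lists, by the root mean square difference over 6 mice of the centred log2 values, with vehicle-treated mouse 3 included. *Tcf4* lay nearest to *Bst2* (0.11) and *Ly6c2* (0.12), and *Flt3* to *Sirpa* (0.12) and *Spi1* (0.15). *Bst1* lay nearest to *Cd86* (0.15) and *S100a8* (0.25), and *Bcl11a* to *Cx3cr1* (0.16), the gene of the reporter locus, and *Clec10a* (0.17). *Irf4* lay nearest to *Tlr7* (0.26) and *Klf4* (0.33), and *Zbtb46* to *Ccr2* (0.24) and *Cd79b* (0.26). *Ccr7* lay nearest to *Sox4* (0.215) and *Prss34* (0.30), *Siglech* to *Cd209d* (0.37) and *Ccr9* (0.47), and *Cd209a* to *Upb1* and *Smim5* (0.50 each). These distances grow with how much a member itself varied, and the root mean square of a member about its own mean ran from 0.19 for *Flt3*, 0.20 for *Tcf4* and 0.32 for *Zbtb46* to 0.65 for *Ccr7*, 0.79 for *Siglech* and 0.88 for *Cd209a*. *Siglech*, *Cd209d*, *Ccr9* and *Upb1* share their lowest value in vehicle-treated mouse 3, and *Cx3cr1* was also lowest there, at 15.5 FPKM against 29.5 to 36.1 in the other mice.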

How the data were processed

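RNA-Seq data of sorted CX3CR1-EGFP+ cells were used from 3 JAK inhibitor-treated and 3 vehicle-treated mice. For each mouse, the authors deposited a table of FPKM; the submitters' processing notes name TopHat2 2.0.13, Bowtie2 2.2.3, SAMtools 0.1.19, Cufflinks 2.2.1 and the mm10 build. Read counts were not used here. As a rough estimate from ratios of low values, 8 of 15 library pairs gave a clear peak, at a ratio of at most 1.16-fold within a pair; no interval from counts can be given.

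Genes that reached an FPKM of 1 in any mouse were compared on log2(FPKM + 1) with limma 3.58.1 in R 4.3.3, using a trend in the empirical Bayes step and no block; p was adjusted over all tested genes by the Benjamini-Hochberg method. For single genes an exact 2-sided permutation test was added. The model was tested on simulated data. Alternatives were a pseudocount of 0.1, no filter, no trend, an FPKM of at least 1 in 3 mice, median ratio scaling, quantile normalization, library weights, the replicate number as a block, and leaving out each mouse in turn; list counts without vehicle-treated mouse 3 were added after the data were seen. The 10 members and the 16 lists, with 146 genes, were chosen with earlier results of these data known; *Ly6g*, 1 of these, was not used here. Genes named by rule are the members, the most abundant gene of each list, its genes with the smallest unadjusted p (3 in dendritic cell lists, 2 in the others) and the 2 genes nearest in pattern to each member. Others, such as markers at or near 0, *Flt3l*, *Nfil3*, *Csf2ra*, *Jchain*, *Itgax*, *Klk1*, *Vcam1*, *Cd83*, *S100a9*, *Retnlg*, *Ocstamp*, *Cd200r3*, *Ms4a6c*, *Ly6d*, *Cox6a2*, *Dntt* and *Mpo*, were named after their values were seen. Promoter windows were matched by symbol for 7 of the 10 members; none was matched for *Bst1*, *Ccr7* and *Tcf4*. Figures were drawn with matplotlib 3.10.9, and tables were made with NumPy 2.4.6, pandas 2.3.3 and SciPy 1.17.1 in Python 3.11.15.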

Additional observations from a re-analysis of the deposited data

How the results depend on the processing

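Across 14 alternatives, 75 named genes gave 1043 fold changes, of which 1016 kept their direction and 27 reversed, in 15 genes; 60 genes, with 5 of the members, never reversed. The number of genes past an adjusted p under 0.05 was 15 in the main analysis, 2 with no filter, 34 with an FPKM of at least 1 in 3 mice, 2 with no trend, 63 with library weights and 3 to 95 when a mouse was left out (95 without vehicle-treated mouse 2, 94 without vehicle-treated mouse 3). With the replicate block it was 67, and *Bst1* became the 1 member past it (limma adjusted p = 0.0397, with a range of 0.0397 to 0.302 over the alternatives); its unadjusted p was under 0.05 in 14 of 14 alternatives. No pairing of the mice by number is stated in the sources used here. The residuals of same-numbered mice correlated at 0.02, 0.05 and -0.0002, and not every mouse correlated best with its own number. Residuals about means of 3 mice cannot decide whether the mice were paired. With a mouse left out, 0 members passed the adjusted threshold, 1 to 4 an unadjusted p under 0.05, against 12.0% to 16.7% of all tested genes, and 2 to 5 had groups that did not overlap, against 30.8% to 34.9% (5 without vehicle-treated mouse 2; 1 with the filter of 3 mice, which *Irf4* failed, against 22.5%). The conventional median was 0.34, 1.21 with a pseudocount of 0.1, 0.15 with the filter of 3 mice, 0.079 with library weights and -0.095 to 0.63 with a mouse left out; the plasmacytoid median was -0.01 and ranged from -0.43 to 0.28. With library weights *Tcf4* was at -0.01, *Cd209d* at -0.35 and *Ccr9* at -0.039, each above 0 in the main analysis. With a mouse left out, the log2 fold change ranged from -0.19 to 0.20 for *Zbtb46*, -0.86 to 0.33 for *Siglech*, -0.11 to 0.23 for *Tcf4*, -0.18 to 0.85 for *Ccr7*, -0.18 to 0.052 for *Ebi3*, -0.064 to 0.31 for *Ly6c2*, -0.095 to 0.091 for *Ccr2*, -0.57 to 0.61 for *Cd209d*, -0.20 to 0.35 for *Ccr9* -0.028 to 0.30 for *Bst2*, -0.38 to 0.085 for *Cd200r3*, -0.34 to 0.16 for *Cd83*, -0.30 to 1.44 for *Ly6d*, -1.26 to 0.71 for *Retnlg* and -0.46 to 0.18 for *S100a9*. The cause of these changes was not tested. With 3 mice per group, low genes such as *Irf4* and *Zbtb46* and an unknown depth, small differences could have been missed. The smallest difference that could be detected is not given here.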

Other observations

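*Ebi3*, which encodes a subunit shared by interleukins of the IL-12 family, was the most abundant gene of the mature dendritic cell list, at 89.8, 73.3 and 85.8 FPKM in JAK inhibitor-treated mice 1 to 3 and 100.03, 88.0 and 72.2 in vehicle-treated mice 1 to 3, although *Il12b* and *Ccl22* were listed at 0 in every mouse and *Fscn1* reached at most 0.225.

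At an unadjusted p under 0.05, 9.4% of all tested genes were lower and 6.57% higher with the JAK inhibitor. Of 7 tested T and NK cell markers, 1 was lower and 1 was higher at this p, with a median log2 fold change of -0.08. Without vehicle-treated mouse 3, 0 of 6 were lower and 1 was higher, with a median of 0.08. *Nkg7*, a granule gene of cytotoxic lymphocytes, was at 557, 499 and 489 FPKM in JAK inhibitor-treated mice and 328, 363 and 167 in vehicle-treated mice. *Cd3e* was at most 0.385 in all 6 mice. *Gzma*, the 1 lower marker, was at 10.8, 3.01 and 0 FPKM in JAK inhibitor-treated mice and 10.9, 8.01 and 33.1 in vehicle-treated mice. Its log2 fold change was -2.09 (limma unadjusted p = 0.0293, adjusted p = 0.257) and -1.515 without vehicle-treated mouse 3 (limma unadjusted p = 0.082). The log2 fold change of *Nkg7* was 0.92 (limma adjusted p = 0.147) and 0.57 without vehicle-treated mouse 3 (limma adjusted p = 0.0278).

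Of 6 mast cell and basophil markers, 0 were lower and 1 was higher at an unadjusted p under 0.05. Over all tested genes 9.4% were lower and 6.57% higher. The higher marker was *Mcpt8* (log2 fold change 0.60), and the median of the 6 was 0.06. When vehicle-treated mouse 3 was left out, 1 was lower, namely *Cd200r3* (-0.38, limma unadjusted p = 0.0354), and 0 were higher, with *Mcpt8* at 0.36 (limma unadjusted p = 0.0911) and a median of -0.10. *Prss34* was at 1900, 2338 and 1535 FPKM in JAK inhibitor-treated mice and 1431, 2296 and 923 in vehicle-treated mice, and the groups overlapped (log2 fold change 0.39, and 0.06 without vehicle-treated mouse 3).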
